A study of Mus musculus with 2 samples.

Results

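The genes described here encode drug-metabolising enzymes, and they were chosen by name and by counts. A gene was a member when its symbol belonged to the cytochrome P450 families Cyp1 to Cyp4, the UDP-glucuronosyltransferases (Ugt), the sulfotransferases (Sult) or the cytosolic and mitochondrial glutathione S-transferases (Gst), and when it had at least 20 unique molecular identifiers (UMIs, 1 for each captured transcript) over both libraries. Of 32285 genes in the tables, 138 matched the name pattern and 69 of these were members: 33 of 75 Cyp genes, 8 of 21 Ugt genes, 8 of 21 Sult genes and 20 of 21 Gst genes. The other matches had no UMI (17 genes) or 1 to 19 UMIs (52 genes). The members with the fewest UMIs were Ugt2b36 (21), Cyp2c23 (24), Gsta2 (24) and Cyp2j13 (28), and the genes just under the threshold were Sult2a2 (18), Cyp2c38 (17) and Ugt1a2 (16). Cyp1a1 had 10 UMIs, Cyp2e1 had 8 and Cyp3a11 had 5, so these well-known drug-metabolising genes of liver and gut were not members. The name pattern takes gene families and not functions, and some members act mainly on the body's own compounds, such as Cyp2r1, a vitamin D 25-hydroxylase.

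The study took colorectal tumours that azoxymethane and dextran sulphate sodium (AOM/DSS) had induced in mice. There was 1 library labelled STK25 wKO, from global knockout mice of the kinase gene Stk25, and 1 library labelled WT, from wild-type mice given the same agents. Tumours of each group were pooled and dissociated with trypsin, and the number of mice, their age and strain and the knockout allele were not given in the sources used here. The series text speaks of a sort for the presence or absence of mCherry, but the labels do not say which gate either library holds, and the transcripts were read from their 3′ end on the 10x Genomics platform.

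Foreign compounds and many of the body's own lipids and hormones are cleared in steps. Cytochrome P450 enzymes add oxygen to a substrate (phase I), and conjugating enzymes then attach glucuronic acid (Ugt), sulphate (Sult) or glutathione (Gst), which makes the product soluble and ready for export (phase II). The lining of the colon carries its own set of these enzymes, since it meets compounds from food, bile and microbes. The tumour model itself rests on this chemistry, because azoxymethane is turned into a DNA-alkylating agent by P450 enzymes, chiefly CYP2E1. The transcription factor NRF2 switches on several Gst genes through antioxidant response elements, and the aryl hydrocarbon receptor acts on Cyp1 genes through xenobiotic response elements.

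The members' promoters show where such elements could lie. In the RefSeq promoter table for GRCm38.p6, which gives 250 bases before and 50 bases after each start, 59 members had 73 promoters. The antioxidant response element was searched as TGACNNNGC on both strands, and it was found in 9 of the 73 promoters of members (12.3%) and in 12.4% of all 32851 promoters. The core of the xenobiotic response element, searched as GCGTG on both strands, was found in 23 of the 73 promoters (31.5%) and in 32.4% of all promoters. Neither share stood above that of all promoters. A match gives only these letters, and binding was not measured. The 5 matches of the antioxidant element that lie before a start are shown because they belong to members with contrasting levels in the tumours, 2 Cyp4f genes and 3 Gst genes; each line gives 40 bases from 5′ to 3′ on the gene's strand, with the element in capitals.
Cyp4f14, chr17:32917190-32917229 (minus strand): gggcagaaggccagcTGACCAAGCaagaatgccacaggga
Cyp4f18, chr8:72009742-72009781 (minus strand): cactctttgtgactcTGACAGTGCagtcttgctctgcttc
Gsta3, chr1:21240449-21240488 (plus strand): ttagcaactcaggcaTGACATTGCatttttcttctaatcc
Gstm5, chr3:107895797-107895836 (plus strand): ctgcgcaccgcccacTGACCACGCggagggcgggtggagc
Gstm7, chr3:107931719-107931758 (minus strand): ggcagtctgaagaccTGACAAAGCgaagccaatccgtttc
The element began 127 bases before the start in Cyp4f14, 140 in Cyp4f18, 121 in Gsta3, 42 in Gstm5 and 129 in Gstm7. Among these 5 genes, Cyp4f18 was highest in neutrophils, Cyp4f14 in absorptive colonocytes and Gstm5 and Gstm7 in stem-like epithelial cells of both libraries, as given below.

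Sequencing was deeper under the knockout label: 66297749 UMIs in 14168 barcodes for STK25 wKO, with a median of 2065, and 38737373 UMIs in 12542 barcodes for WT, with a median of 1386.5. After filters, 13883 and 12270 cells were kept from these libraries, and 230 barcodes occurred in both. Stk25 itself was at 127 CPM (UMIs of a gene per 1000000 UMIs, 95% interval 124 to 130.0) in the library labelled STK25 wKO and at 118 CPM (115 to 122) in the library labelled WT. Within the epithelial class it was at 156 CPM (153 to 160.0) in the library labelled STK25 wKO and 169 CPM (164 to 175) in that labelled WT, whose intervals lay apart. Fibroblasts had 86.8 CPM (76.0 to 98.8) in the library labelled STK25 wKO and 51.9 CPM (42.1 to 63.3) in that labelled WT. Stk25 transcripts were thus present under the knockout label in each class, and since the allele is not described, the 3′ tag may lie outside the deleted part, so these values check nothing. The clusters were named from marker genes, and member genes took no part in clustering. Of the epithelial cells, 4347 belonged to the library labelled STK25 wKO and 2426 to the library labelled WT. With 1 library per group there was no replicate and no test was made. All intervals are exact 95% intervals that cover counting error only, and ratios are those of the library labelled STK25 wKO over the library labelled WT. Epithelial transcripts were also counted in other cells, where the 9 epithelial markers summed to 4648 CPM in B cells of the library labelled STK25 wKO (25.9% of the epithelial level) and to 3629 CPM in B cells of the library labelled WT (23.5%). Levels of epithelial members in other cell types are therefore given beside the level in B cells. The unnamed cluster 7 held 2496 cells of the library labelled STK25 wKO and 127 of the library labelled WT, and unnamed cluster 2 held 207 and 2097 of them, at medians of 709 to 872 UMIs, and neither enters a comparison.

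Together the members held 212047 UMIs, of which 52.7% belonged to the 5 highest (Gstp1, Gsto1, Gstp2, Gsta4 and Cyp2c55) and 69.5% to the 10 highest. Because UMIs were tagged at the 3′ end and not scaled by length, these totals describe the libraries and do not rank the genes. Gst genes held 67.3% of the members' UMIs in the library labelled STK25 wKO and 67.4% in the library labelled WT. The Cyp share was 18.0% in the library labelled STK25 wKO and 18.3% in the library labelled WT, so the make-up by family was nearly the same. Summed over members, the epithelial class was at 2691 CPM in the library labelled STK25 wKO and 2228 CPM in the library labelled WT. Fibroblasts had 1772 CPM in the library labelled STK25 wKO and 1463 CPM in that labelled WT, and B cells had 1166 CPM and 972 CPM in the same order of libraries.

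**Figure D1:**
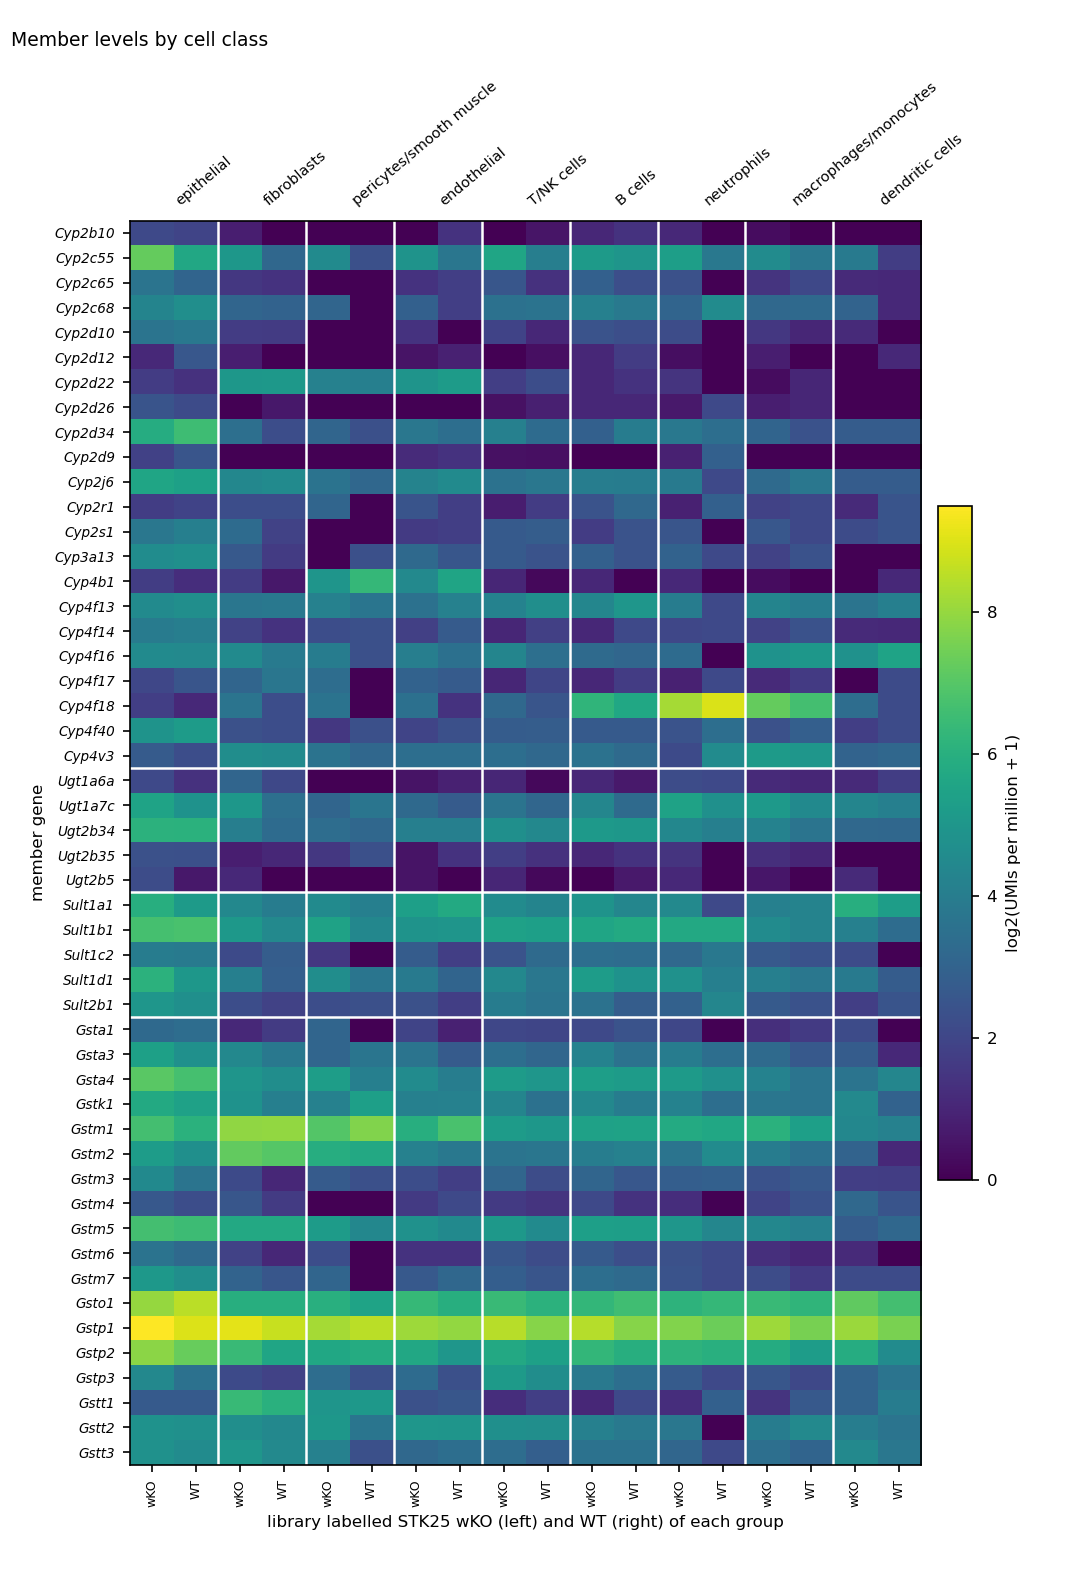
Heat map of the members with at least 200 UMIs (rows) in 9 named cell classes (column pairs, library labelled STK25 wKO left and WT right), as log2(CPM + 1). Yellow and light green mark high levels: Gstp1 is bright in every class, Gsto1 and Cyp2c55 are brightest in the epithelial pair, Cyp4f18 in neutrophils (296 and 492 CPM), and Gstm1, Gstm2 and Gstt1 in fibroblasts.

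The highest class was the same in both libraries for 44 of the 69 members, and for 19 of these its interval lay apart from that of the next class in both. The epithelial class was highest for 30 members, 14 of them apart: Gsta3, Gsta4, Gstm5, Gstm7, Gstp1, Gstp2, Gsto1, Cyp2c55, Cyp2d34, Cyp2j6, Cyp3a13, Cyp4f40, Ugt2b34 and Sult1b1. Fibroblasts were highest for 8 members, with Gstm2, Sult5a1, Cyp1b1 and Cyp2c23 apart. These counts were made for the members only and not over all genes. They do not set the members apart from other genes. Unnamed cluster 12 (58 cells labelled STK25 wKO and 34 labelled WT) was not ranked. Of the UMIs of Cyp2c68, 1 of the 30, it held 2.27% in the library labelled STK25 wKO and 0.41% in that labelled WT. Its share of the cells was 0.42% and 0.28%. One enzyme of immune cells stood out: Cyp4f18, which hydroxylates leukotriene B4. It was at 296 CPM in 1626 neutrophils of the library labelled STK25 wKO (95% interval 278 to 314). In 229 neutrophils of the library labelled WT it was at 492 CPM (417 to 577). Its next highest class, macrophages or monocytes, had 151 CPM in the library labelled STK25 wKO and 99.5 CPM in that labelled WT, and the epithelium had 2.37 CPM and 1.13 CPM in the same libraries.

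Within the epithelium, marker genes gave 5 states with enough cells in both libraries: stem-like, transit (Cftr), absorptive colonocyte, inflammatory (Duoxa2) and goblet or deep secretory. Of these 5 states, absorptive colonocytes had the highest summed member level in both libraries. It was 6000 CPM in the library labelled STK25 wKO (579 cells) and 3272 CPM in that labelled WT (189 cells). Within this state, subcluster 13 had 8404 CPM and 4288 CPM (190 and 28 cells), and subcluster 10 had 2965 CPM and 2630 CPM (389 and 161 cells). Outside the 5 states, unnamed subcluster 7 had 3309 CPM and 3475 CPM. Squamous cells had 4471 CPM (10 cells) and 15625 CPM (47 cells). Stem-like cells had the lowest of the 5, 1927 CPM in the library labelled STK25 wKO (1074 cells) and 1564 CPM in the library labelled WT (621 cells). A given member had the same highest state in both libraries in 45 of 69 cases, and in 24 cases with intervals apart from the next state in both. Absorptive colonocytes led for 18 members, transit cells for 13, stem-like cells for 7, inflammatory cells for 5 and goblet cells for 2. This order covers the 5 states only. As with the classes, these counts were made for the members only and not over all genes. Epithelial subcluster 7 (326 cells labelled STK25 wKO and 70 labelled WT) and subcluster 9 (466 and 210 cells) stayed unnamed and were not ranked.

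**Figure D2:**
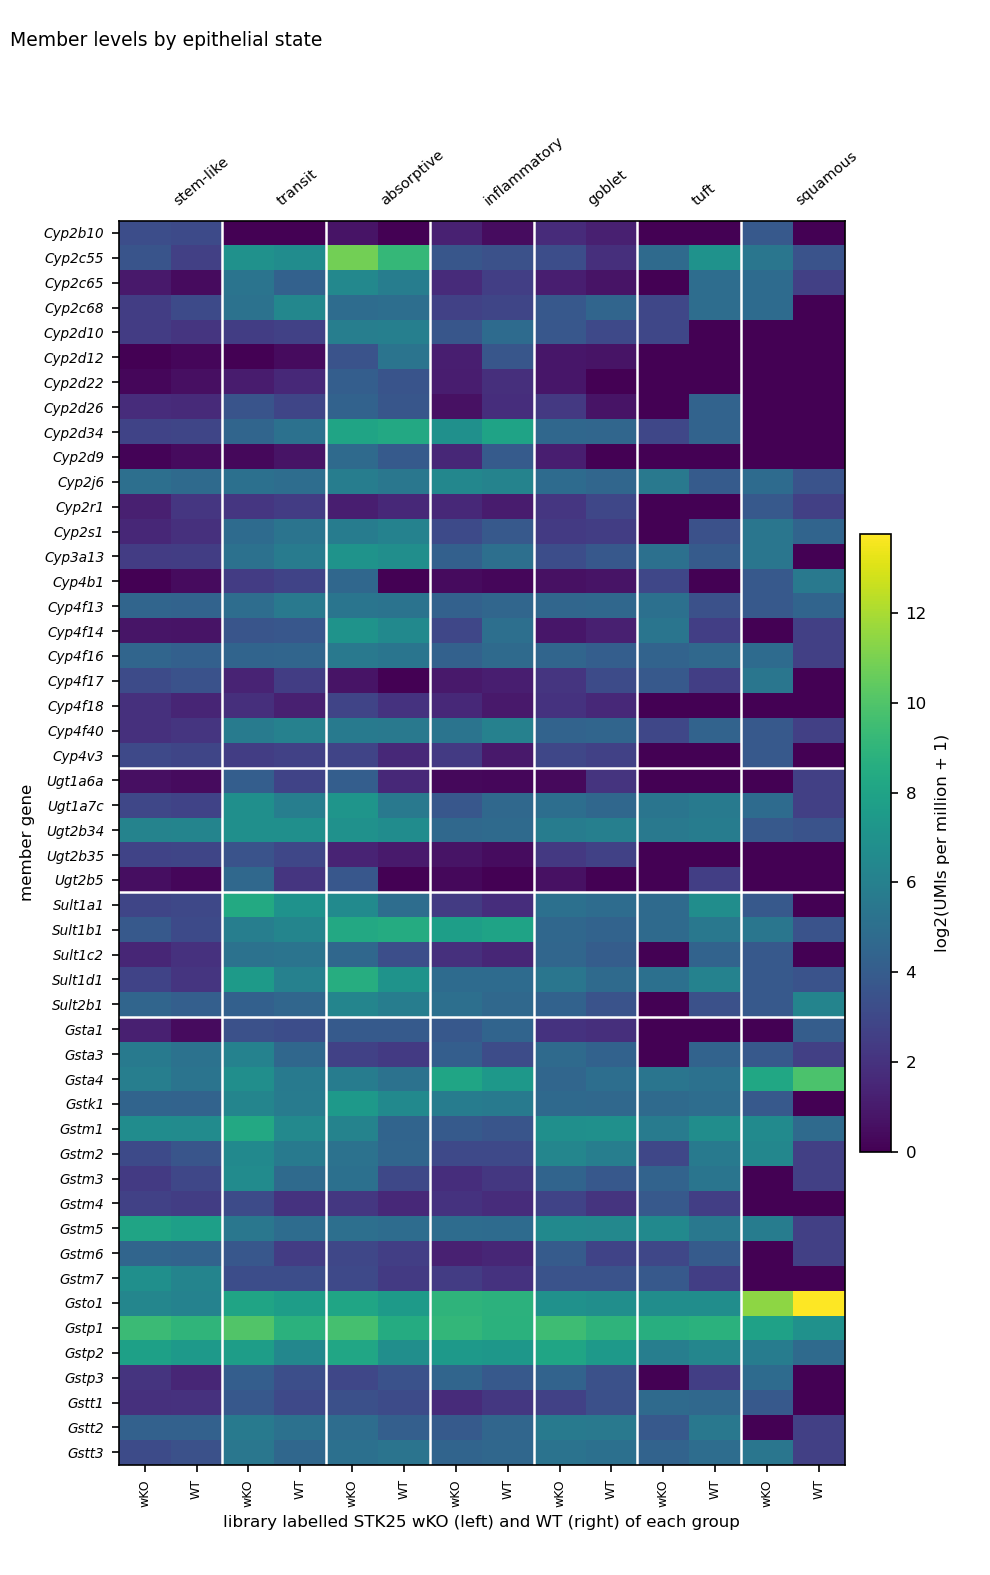
Heat map of the members with at least 200 UMIs (rows) in the epithelial states (column pairs, library labelled STK25 wKO left and WT right), as log2(CPM + 1). Yellow and light green mark high levels: Cyp2c55 is bright in the absorptive pair (1818 and 572 CPM) and Gsto1 in the squamous pair (2813 and 14012 CPM), while Gstp1 is bright in all 5 larger states.

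Cyp2c55, which oxidises arachidonic acid and is a known colon P450 of the mouse, was at 1818 CPM in absorptive cells of the library labelled STK25 wKO and 572 CPM in those of the library labelled WT. In transit cells it was at 125 CPM in the library labelled STK25 wKO and 102 CPM in the library labelled WT, and in stem-like, goblet and inflammatory cells it was under 12 CPM in each library. A UMI of Cyp2c55 was present in 55.1% of absorptive cells in the library labelled STK25 wKO and 47.1% in the library labelled WT, against 4.45% and 2.90% of B cells. After thinning each cell to 1000 UMIs, the absorptive shares were 41.5% in the library labelled STK25 wKO and 24.3% in that labelled WT, and the B-cell shares were 4.98% and 2.38%. The median depths were 2717 and 2914 UMIs in absorptive cells and 1229 and 938 UMIs in B cells, with the library labelled STK25 wKO first in each pair. Cyp3a13, the CYP3A gene expressed most in mouse gut, had 136 CPM in absorptive cells of the library labelled STK25 wKO and 111 CPM in those labelled WT, and at most 51.4 CPM in the other 4 states. Cyp4f14, a fatty-acid ω-hydroxylase, had 135 CPM in absorptive cells of the library labelled STK25 wKO and 90.7 CPM in those of the library labelled WT. Cyp2s1, Cyp2c65, Cyp2d10, Cyp2d12, Cyp2d22 and Cyp2d34 were also highest in absorptive cells of both libraries with intervals apart, as were Sult1b1, Sult1d1, Sult2b1 and Gstk1.

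Other states had other members at their head. Transit cells led for Sult1a1, the main phenol sulfotransferase, with 330 CPM in the library labelled STK25 wKO and 127 CPM in the library labelled WT, and also for Sult1c2, Gstm3 and Ugt2b5. For Ugt2b5 this order did not hold in other settings: with states set per cell, absorptive cells had 10.5 CPM and transit cells 9.79 CPM in the library labelled STK25 wKO, and after thinning to 1000 UMIs the library labelled WT kept 1 UMI, in stem-like cells. Unnamed subcluster 7, which was not ranked, had Sult1a1 at 118 CPM in the library labelled STK25 wKO and 206 CPM in that labelled WT. Sult1c2 was at 53.0 CPM and 107 CPM there, against at most 42.9 CPM in transit subclusters 2 and 3. Gstm3 was at 36.2 CPM and 49.2 CPM there. It was at 15.0 CPM and 17.9 CPM in transit subcluster 2, and at 147 CPM and 47.7 CPM in transit subcluster 3. Stem-like cells led for 3 mu-class genes that are neighbours on chromosome 3 and for Cyp2b10. Gstm5 had 262 CPM in stem-like cells of the library labelled STK25 wKO and 216 CPM in those of the library labelled WT, and at most 93.0 CPM in the other 4 states. Gstm7 had 116 CPM and 74.5 CPM in stem-like cells of the libraries labelled STK25 wKO and WT. Elsewhere among the 5 states it had at most 10.7 CPM. In stem-like cells the third gene, Gstm6, had 21.6 CPM and 19.9 CPM. Within the stem-like state, Gstm5 and Gstm7 were high in subcluster 5 (413 cells labelled STK25 wKO and 161 labelled WT). Gstm5 was at 345 CPM and 326 CPM there, and Gstm7 at 155 CPM and 110 CPM. In stem-like subclusters 0 (305 and 245 cells) and 8 (356 and 215 cells), Gstm5 had at most 67.1 CPM and Gstm7 at most 29.3 CPM. Inflammatory cells led the 5 states for Gsta4, which clears the lipid aldehyde 4-hydroxynonenal. They had it at 271 CPM in the library labelled STK25 wKO and 160 CPM in the library labelled WT. Within them, subcluster 4 had 306 CPM and 201 CPM, and subcluster 1 had 68.7 CPM and 48.5 CPM. Unnamed subcluster 9, which was not ranked, had Gsta4 at 192 CPM and 187 CPM. Inflammatory cells also led for Gsto1, an omega-class enzyme that reduces dehydroascorbate. It was at 493 CPM in the library labelled STK25 wKO and 469 CPM in that labelled WT. They led as well for the epoxygenase gene Cyp2j6, at 82.0 CPM and 69.6 CPM. After thinning, inflammatory cells still led for Cyp2j6 in the library labelled STK25 wKO (66.9 CPM), but in the library labelled WT transit cells did (32.3 CPM, and 21.2 CPM in inflammatory cells). Gstp1, the pi-class transferase that is often abundant in tumours, was high in all 5 states, between 556 CPM and 1035 CPM in the library labelled STK25 wKO and between 355 CPM and 512 CPM in the library labelled WT.

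A pair of small epithelial groups carried particular members. Squamous cells, 10 in the library labelled STK25 wKO and 47 in the library labelled WT, had Gsto1 at 2813 CPM and 14012 CPM, with a UMI in 60.0% and 85.1% of cells. Gsto2, its neighbour on chromosome 19, was at 54.4 CPM in squamous cells labelled STK25 wKO and at 114 CPM in those labelled WT, and at 2.0 CPM or less in each of the 5 larger states. Gsta4 was at 299 CPM in squamous cells labelled STK25 wKO and 954 CPM in those labelled WT. Tuft cells, 42 in the library labelled STK25 wKO and 32 in that labelled WT, held most of the UMIs of Cyp2j13 in the epithelium: 39.5 CPM (6 of 9 UMIs) and 63.8 CPM (13 of 14 UMIs).

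Setting the libraries side by side in the epithelial class, 63 members had at least 20 UMIs there and entered the comparison. Of these, 6 were at least 2-fold higher in the library labelled STK25 wKO (a log2 ratio of at least 1), where 2.81% of all 16598 genes were, and 3 were at least 2-fold lower, where 4.89% of all genes were. The higher members were Cyp2c55, Ugt2b5, Sult1d1, Ugt1a1, Ugt1a6a and Cyp4f18, and the lower ones Cyp2d12, Gsto2 and Cyp2j13. The shares of all genes above do not apply with the 5 larger states weighted equally, and none is given here for that setting. With that weighting, 10 members were higher and 3 were lower, and of the lower ones only Cyp2d12 was shared. Gsto2 then had a log2 ratio of -0.44. Cyp2j13, whose UMIs lay mostly in tuft cells, turned to the higher side on 3 UMIs in absorptive and inflammatory cells of the library labelled STK25 wKO and 0 UMIs in the 5 states of the library labelled WT. The median log2 ratio of the 63 members was 0.19, with 42 above and 21 below 0, against a median of -0.15 over all 16598 genes, of which 6150 lay above and 10448 below 0. The interval lay above 0 for 27 members, as it did for 19.6% of all genes, and below 0 for 13 members, as for 38.7% of all genes. As sums, Sult genes had a log2 ratio of 0.36 (277 CPM in the library labelled STK25 wKO and 216 CPM in that labelled WT), Ugt genes 0.33, Gst genes 0.28 and Cyp genes 0.17. Beside these values, epithelial cells had medians of 5369 UMIs in the library labelled STK25 wKO and 4484.5 in the library labelled WT. The nuclear RNA Malat1 was at 7299 CPM and 11156 CPM in these cells, and the 8 neutrophil markers summed to 564 CPM and 279.9 CPM. The part of any of these in the members' ratios was not tested.

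**Figure D3:**
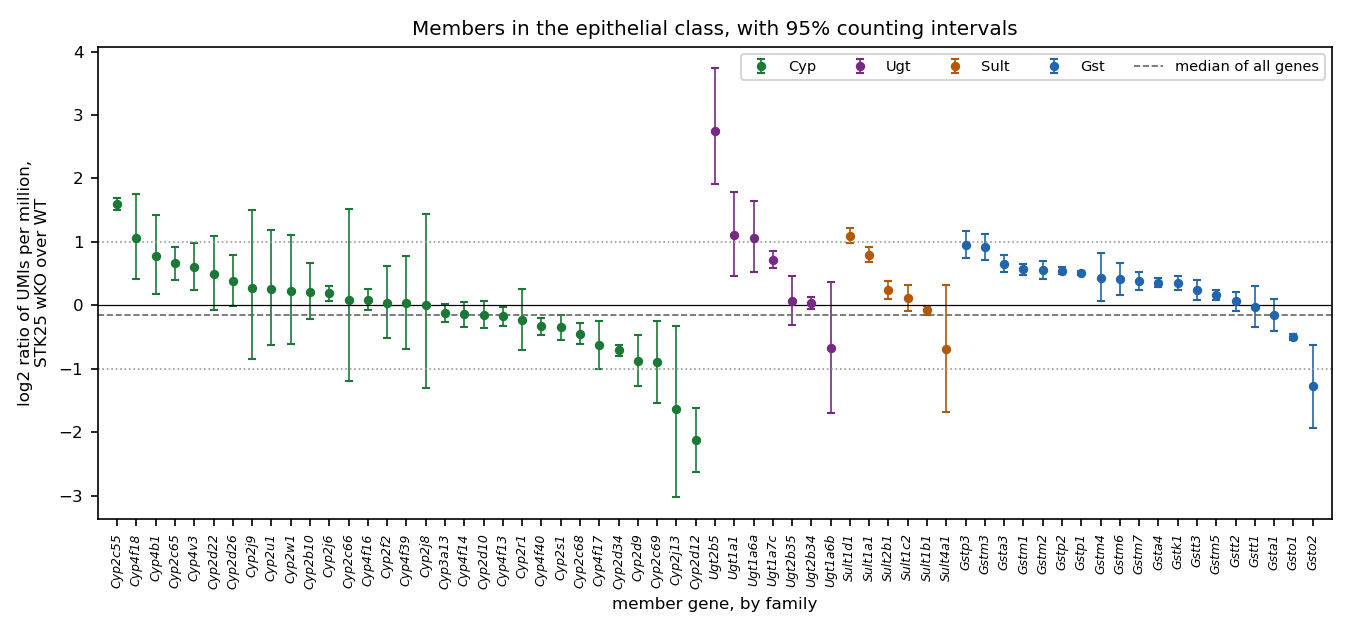
Log2 ratio of CPM in the epithelial class, library labelled STK25 wKO over WT, for the 63 members with at least 20 UMIs there, grouped by family, with 95% counting intervals; the dashed line is the median over all genes (-0.15). Ugt2b5 (2.75) and Cyp2c55 (1.60) lie far above the line and Cyp2d12 (-2.12) far below it.

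Among the P450 genes, Cyp2c55 was at 153 CPM in the epithelium of the library labelled STK25 wKO (6730 UMIs) and 50.6 CPM in that of the library labelled WT (1117 UMIs), a log2 ratio of 1.60 (95% interval 1.50 to 1.69). By state the ratio was 1.67 in absorptive cells (1.54 to 1.79), 1.72 in goblet cells (0.24 to 3.68, on 34 and 4 UMIs), 1.10 in stem-like cells (0.51 to 1.72), 0.28 in transit cells (0.08 to 0.49) and 0.27 in inflammatory cells (-0.21 to 0.77). The absorptive state joined 2 subclusters. Subcluster 13 (190 cells labelled STK25 wKO and 28 labelled WT), whose 10 leading genes include Car1, Aqp8, Guca2a and Cyp2c55 itself, had Cyp2c55 at 2987 CPM in the library labelled STK25 wKO and 894 CPM in that labelled WT. Subcluster 10 (389 and 161 cells in the same libraries) had 342 CPM and 369 CPM (log2 ratio -0.11, -0.34 to 0.12). Within the absorptive state the difference in Cyp2c55 was in the first of these subclusters, in which the library labelled WT had few cells. Outside that state, subcluster 0 had 34.6 CPM in the library labelled STK25 wKO and 7.14 CPM in the library labelled WT (2.28, 1.28 to 3.42), and transit subcluster 2 had 190.1 CPM and 115 CPM (0.73, 0.48 to 0.98). Outside the named states, subcluster 7 (326 cells labelled STK25 wKO and 70 labelled WT) had the opposite direction, with 21.3 CPM in the library labelled STK25 wKO and 92.8 CPM in the library labelled WT. Cyp2c65, the neighbour of Cyp2c55, had a log2 ratio of 0.66 in the epithelium (0.40 to 0.93). Of 3 states with at least 20 UMIs of Cyp2c65, its interval lay above 0 in 2 and below 0 in 1, with ratios from -1.16 to 1.06. Cyp2c68, from the same stretch of chromosome 19, went the other way over the whole class. It had 18.5 CPM in the library labelled STK25 wKO and 25.1 CPM in that labelled WT, a log2 ratio of -0.44 (-0.60 to -0.28). By state its ratio ran from -1.21 to -0.13. Absorptive subclusters differed, at 1.01 (0.24 to 1.86) in subcluster 10 and -2.41 (-3.66 to -1.19) in subcluster 13.

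The Cyp2d genes, which lie together on chromosome 15 and whose human counterpart CYP2D6 metabolises many drugs, differed among themselves, and 1 of the 6 that entered the comparison, Cyp2d12, passed 2-fold, on the lower side. Cyp2d12 had 1.14 CPM in the library labelled STK25 wKO and 4.94 CPM in the library labelled WT, a log2 ratio of -2.12 (-2.63 to -1.62). In inflammatory cells it was at 1.22 CPM (11 UMIs) in the library labelled STK25 wKO and 11.9 CPM (67 UMIs) in that labelled WT. Cyp2d34 had 57.4 CPM in the library labelled STK25 wKO and 93.6 CPM in the library labelled WT, a log2 ratio of -0.71 (-0.79 to -0.62). Inflammatory cells had 118 CPM in the library labelled STK25 wKO and 255 CPM in the library labelled WT (-1.11, -1.22 to -0.99), transit cells 21.2 CPM and 34.5 CPM (-0.70, -1.12 to -0.29) and absorptive cells 265 CPM and 322 CPM (-0.28, -0.47 to -0.09). In stem-like and goblet cells its interval held 0. Inflammatory subclusters 1 and 4 had Cyp2d34 at log2 ratios of -0.74 and -1.15. The transit and absorptive states were not uniform. Transit subcluster 2 had a ratio of 0.29 (-0.17 to 0.76), and transit subcluster 3 had -1.802 (-2.799 to -0.805). Absorptive subcluster 13 had 0.35 (-0.06 to 0.79), and absorptive subcluster 10 had -0.24 (-0.45 to -0.02). The part of subcluster make-up in the ratios of these states was not tested. Cyp2d9 had a log2 ratio of -0.87, and Cyp2d10, Cyp2d22 and Cyp2d26 had intervals that held 0. Cyp2j6 differed by less than 2-fold in each of the 5 states, with an epithelial log2 ratio of 0.19 (0.08 to 0.30).

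Glucuronosyltransferase genes gave the largest ratio among the 63 members and also ratios near 0. Ugt2b5 had 3.66 CPM in the epithelium of the library labelled STK25 wKO (161 UMIs) and 0.54 CPM in that of the library labelled WT (12 UMIs), a log2 ratio of 2.75 (1.91 to 3.73). In transit cells it was at 24.5 CPM in the library labelled STK25 wKO and 3.38 CPM in the library labelled WT. Absorptive cells had 39 UMIs of Ugt2b5 in the library labelled STK25 wKO and 0 in the library labelled WT, which is at least 4.10-fold higher against the floor of 3 UMIs in that state (2.99 CPM). Ugt2b34, on the same chromosome 5 cluster and the Ugt gene with the most UMIs, had 67.0 CPM in the library labelled STK25 wKO and 65.5 CPM in the library labelled WT, a log2 ratio of 0.03 (-0.06 to 0.13). Ugt2b35 also lay near 0 (0.07, -0.31 to 0.46). The Ugt1a genes share their last exons on chromosome 1, so 3′ reads cannot be told apart with certainty between them. Ugt1a7c had 45.0 CPM in the library labelled STK25 wKO and 27.3 CPM in the library labelled WT. It had 144 CPM and 45.9 CPM in absorptive cells of the libraries labelled STK25 wKO and WT, and 12.3 CPM and 23.9 CPM in inflammatory cells, so its direction differed between states, which was not tested. Ugt1a1, the bilirubin transferase, and Ugt1a6a, a phenol transferase, had epithelial log2 ratios of 1.10 and 1.07 at under 4 CPM in each library.

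Of the sulfotransferases, Sult1d1, which acts on catecholamines, had 67.0 CPM in the epithelium of the library labelled STK25 wKO and 31.3 CPM in that of the library labelled WT, a log2 ratio of 1.10 (0.98 to 1.22), and its B-cell levels were 37.2 CPM and 28.0 CPM. The ratio was 1.49 in absorptive cells (379 CPM in the library labelled STK25 wKO, 135 CPM in the library labelled WT) and 1.44 in transit cells (179 CPM and 65.9 CPM), but -0.05 in inflammatory cells (26.7 CPM and 27.6 CPM). Sult1a1 had 60.7 CPM in the library labelled STK25 wKO and 34.9 CPM in the library labelled WT, a log2 ratio of 0.80 (0.68 to 0.92). In absorptive cells it was at 96.6 CPM in the library labelled STK25 wKO and 28.9 CPM in the library labelled WT (1.74, 1.19 to 2.34), while transit cells gave a ratio of 1.37 (1.21 to 1.54). Within the transit state the difference was in subcluster 3 (202 cells labelled STK25 wKO, 48 labelled WT), with 457 CPM in the library labelled STK25 wKO and 187 CPM in that labelled WT. Subcluster 2, with the larger part of the transit cells, had 98.5 CPM in the library labelled STK25 wKO and 103 CPM in the library labelled WT. Outside the named states, subcluster 7 had the opposite direction, with Sult1a1 at 118 CPM and 206 CPM (-0.81, -1.03 to -0.58). Sult1b1, which sulphates thyroid hormones and phenols, was at 103 CPM in the library labelled STK25 wKO and 109 CPM in the library labelled WT, and Sult2b1, which sulphates hydroxysteroids such as cholesterol, was at 30.4 CPM and 25.7 CPM.

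**Figure D4:**
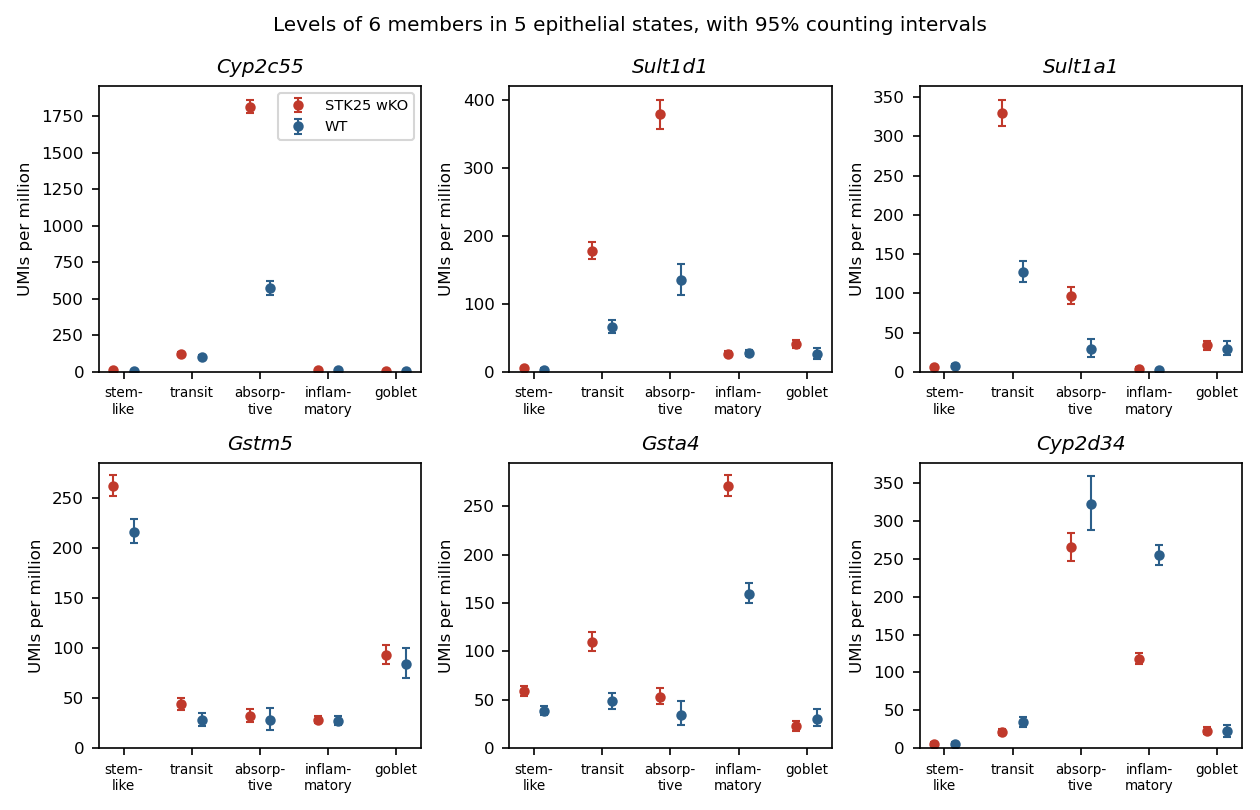
Level (CPM) of 6 members in the 5 epithelial states, library labelled STK25 wKO and WT side by side, with 95% counting intervals. The libraries are far apart for Cyp2c55 in absorptive cells (1818 and 572) and for Sult1a1 in transit cells (330 and 127).

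Most glutathione S-transferase genes were higher in the library labelled STK25 wKO by less than 2-fold. Of the 19 that entered the comparison, 15 had a ratio above 0, and none passed a log2 ratio of 1 on that side. Of all 16598 genes in this class, 2.81% passed it, and the number above 0 is given above. Gstp1 had 721 CPM in the library labelled STK25 wKO and 507 CPM in the library labelled WT (log2 ratio 0.51, 0.48 to 0.54), and Gstp2 had 227 CPM and 156 CPM (0.54, 0.49 to 0.60). The 2 genes share much of their 3′ ends, as given below. Gstp1 was also higher in the library labelled STK25 wKO in other classes: B cells (346 CPM and 218 CPM), T or NK cells (351 CPM and 216 CPM) and macrophages or monocytes (273 CPM and 184 CPM). In pericytes or smooth muscle it was lower there (299 CPM and 365 CPM). Gstp1 was higher in each of the 5 states of the library labelled STK25 wKO, with log2 ratios of 1.21 in absorptive and in transit cells, 0.49 in goblet cells, 0.37 in stem-like cells and 0.35 in inflammatory cells. In transit subcluster 2, however, it had 219 CPM in the library labelled STK25 wKO and 256 CPM in that labelled WT, and in subcluster 3 it had 1483 CPM and 929 CPM. Gstm1 had the same split, with 466 CPM in the library labelled STK25 wKO and 147 CPM in the library labelled WT in subcluster 3, and 55.5 CPM and 66.1 CPM in subcluster 2. Subcluster 3 made up a larger part of the transit cells in the library labelled STK25 wKO than in the library labelled WT, and its cells were deep, with medians of 12326.5 and 12077.5 UMIs. Malat1 was at 2259 CPM and 3443 CPM there, against 14766 CPM and 13591 CPM in subcluster 2, for the libraries labelled STK25 wKO and WT, and its part in the members' levels was not tested. The alpha-class gene Gsta4 had 132 CPM in the epithelium of the library labelled STK25 wKO and 103 CPM in that of the library labelled WT (0.36, 0.29 to 0.43), and Gsta3 had 41.2 CPM and 26.1 CPM (0.66, 0.52 to 0.80).

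Gsto1 was the exception among the Gst genes with many UMIs. It had 255 CPM in the epithelium of the library labelled STK25 wKO and 360 CPM in that of the library labelled WT, a log2 ratio of -0.50 (-0.54 to -0.46). In all 5 larger states it was level or higher in the library labelled STK25 wKO, from 0.07 in inflammatory cells to 0.64 in absorptive cells, and with these states weighted equally the log2 ratio was 0.27. Squamous cells held 207 of the 11194 epithelial Gsto1 UMIs in the library labelled STK25 wKO and 2702 of 7933 in the library labelled WT. Gsto2 had 38 UMIs in the library labelled STK25 wKO and 46 UMIs in the library labelled WT, a log2 ratio of -1.27 (-1.93 to -0.62), and 22 of the 46 were in squamous cells.

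Across states, the library difference was not the same for the members as a group. In absorptive cells 37 of 47 members had a ratio above 0 (median 0.59, all genes -0.08), and in transit cells 30 of 49 did (median 0.41, all genes -0.20). In stem-like cells it was 27 of 43 (median 0.15, all genes -0.06) and in goblet cells 26 of 38 (median 0.20, all genes -0.14). Inflammatory cells had 20 of 44 members above 0, with a median of -0.08 and a median over all genes of -0.01. Transit and absorptive cells differed in make-up between the libraries. Transit subcluster 3 held 2924275 UMIs in the library labelled STK25 wKO and 838829 in that labelled WT, at 4877 CPM and 3065 CPM summed over members. Transit subcluster 2 held 1604477 and 2118156 UMIs, at 2008 CPM and 1897 CPM. Absorptive subcluster 13 held 1773078 and 388033 UMIs, and absorptive subcluster 10 held 1404588 and 614764. The part of this make-up in the medians was not tested, and neither was the difference between states.

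In fibroblasts, 803 cells in the library labelled STK25 wKO and 667 in the library labelled WT, 37 members had at least 20 UMIs. Of these, 8 were at least 2-fold higher in the library labelled STK25 wKO, where 4.26% of all 12125 genes were, and 2 were at least 2-fold lower, where 2.56% of all genes were. These shares do not apply to the next settings, for which none is given here. With a minimum of 50 UMIs 3 members were higher (Cyp2c55, Ugt1a7c and Sult1d1) and 1 was lower (Sult1e1). In fibroblasts with at least 5000 UMIs 7 members were higher, of which only Cyp2c55 and Ugt1a7c were among the 8. The median log2 ratio was 0.40 over the members and 0.02 over all genes. Of the 8, Cyp2c55, Ugt1a7c, Sult1d1, Cyp2d34 and Cyp2s1 are members whose highest class was the epithelium in both libraries. Cyp2c55 had 31.6 CPM in fibroblasts of the library labelled STK25 wKO and 8.03 CPM in those of the library labelled WT, beside 35.0 CPM and 29.6 CPM in B cells. For Ugt1a7c the fibroblast levels were 31.2 CPM in the library labelled STK25 wKO and 10.2 CPM in the library labelled WT, beside 19.7 CPM and 8.78 CPM in B cells. Sult1d1 had 16.2 CPM and 6.42 CPM in fibroblasts of the libraries labelled STK25 wKO and WT, both under its B-cell levels given above. Cyp2d34, Ugt1a6a, Cyp2s1, Cyp4f18 and Cyp1b1 passed 2-fold on 19 to 31 UMIs each in the library labelled STK25 wKO and 5 to 7 UMIs each in the library labelled WT. The 9 epithelial markers moved the same way in fibroblasts, 2949 CPM in the library labelled STK25 wKO and 1647 CPM in the library labelled WT with 9 of 9 detected in each, and so did the 8 neutrophil markers, 1564 CPM and 103 CPM. Their part in these ratios was not tested.

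In fibroblasts, Gstm1, Gstm2, Gstt1, Cyp2d22 and Sult5a1 differed by less than 2-fold between the libraries. Gstm1 had 242 CPM in fibroblasts of the library labelled STK25 wKO and 246 CPM in those of the library labelled WT, beside 42.7 CPM and 42.8 CPM in B cells. Gstm2 had 147 CPM in the library labelled STK25 wKO and 125 CPM in the library labelled WT, and Gstt1, a theta-class gene, had 84.2 CPM and 63.7 CPM, with at most 3.29 CPM in B cells. Cyp2d22 had 31.2 CPM in the library labelled STK25 wKO and 32.6 CPM in the library labelled WT, and endothelial cells had 29.1 CPM and 36.3 CPM. Sult5a1 had 18.4 CPM in fibroblasts of the library labelled STK25 wKO and 32.1 CPM in those of the library labelled WT, a log2 ratio of -0.80 (-1.38 to -0.23). It had at most 1 UMI in B cells of either library, and it reached 92.2 CPM in C7 Myoc fibroblasts of the library labelled WT.

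The clearest stromal difference was Sult1e1, the oestrogen sulfotransferase. Fibroblasts had 0 UMIs in the library labelled STK25 wKO and 69 UMIs (36.9 CPM) in the library labelled WT, at least 32.7-fold lower against the floor of 3 UMIs (1.13 CPM). Nearly all of these UMIs, 61, lay in C7 Myoc fibroblasts of the library labelled WT, where 18.9% of 90 cells had a UMI (exact interval 11.4% to 28.5%). The library labelled STK25 wKO had 35 cells of this state and none with a UMI, with an exact upper bound of 10.0%. The subcluster that held the UMIs, number 15, had 0 cells in the library labelled STK25 wKO and 40 in the library labelled WT, and Sult1e1 was its leading gene although it took no part in clustering. Whether the gene or only its cells were missing in the library labelled STK25 wKO cannot be told apart here. In the same C7 Myoc fibroblasts Gstm2 had 0 UMIs in the library labelled STK25 wKO and 28 UMIs (117 CPM) in the library labelled WT. Cyp2f2, a P450 known for activating naphthalene in mouse airway cells, had 3.76 CPM in fibroblasts of the library labelled STK25 wKO (10 UMIs) and 16.1 CPM in those of the library labelled WT (30 UMIs), a log2 ratio of -2.09 that was -0.49 as a mean over cells. Its UMIs in the library labelled WT lay in Adamdec1 mucosal fibroblasts (29 UMIs in 4.05% of 173 cells), where the library labelled STK25 wKO had 0 UMIs in 186 cells.

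**Figure D5:**
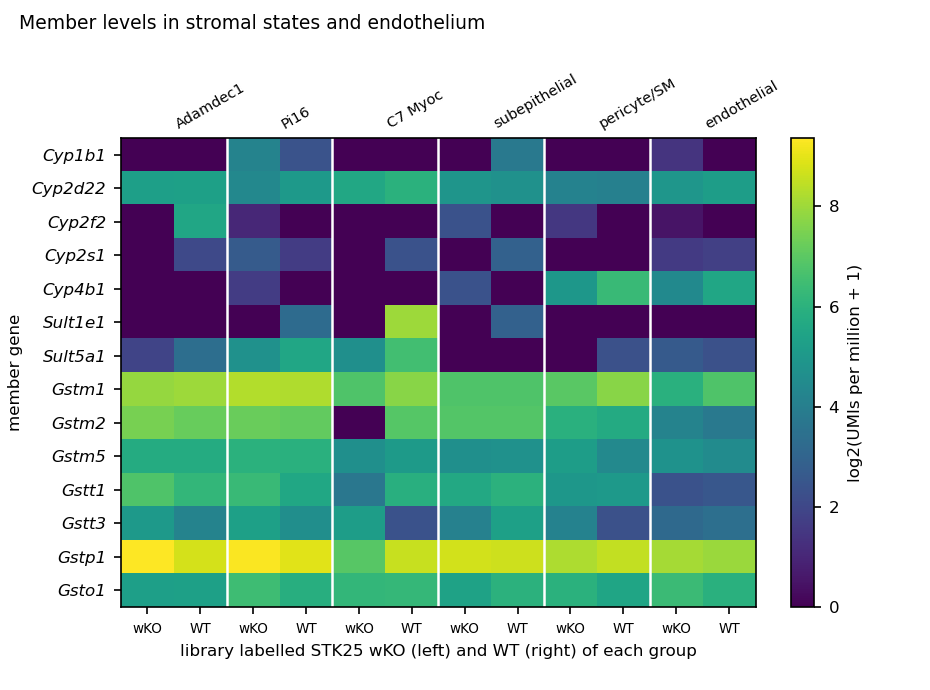
Heat map of 14 members (rows) in the stromal states and endothelium (column pairs, library labelled STK25 wKO left and WT right), as log2(CPM + 1). Yellow and light green mark high levels: Gstp1 and Gstm1 are bright in every fibroblast state, and Sult1e1 is bright in C7 Myoc fibroblasts of the library labelled WT (256 CPM) and dark in those of the library labelled STK25 wKO (0).

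Vessels and blood cells had few members of their own. Cyp4b1, which activates several lung and bladder toxicants, had 30.1 CPM in pericytes or smooth muscle of the library labelled STK25 wKO and 80.1 CPM in those of the library labelled WT, and 20.9 CPM and 45.2 CPM in endothelial cells. Cyp4v3, a fatty-acid hydroxylase, had 35.4 CPM in macrophages or monocytes of the library labelled STK25 wKO and 30.4 CPM in those of the library labelled WT. In dendritic cells, Gsto1 was at 143 CPM in the library labelled STK25 wKO and 98.7 CPM in the library labelled WT, beside 77.7 CPM and 93.8 CPM in B cells. Among the classes, Gstp3 was highest in T or NK cells, at 34.8 CPM in the library labelled STK25 wKO and 24.3 CPM in that labelled WT. Its interval there did not lie apart from that of the next class in both libraries. Unnamed epithelial subcluster 7 had Gstp3 at 53.4 CPM in the library labelled STK25 wKO and 28.8 CPM in that labelled WT.

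The other genes of these pathways were read from lists in the epithelial class. Of 37 other phase I enzymes, 4 were at least 2-fold higher in the library labelled STK25 wKO (Ces1g, Ces2a, Akr1b7 and Aldh1a1, against 2.81% of all genes) and 1 was lower (Aldh1a2, against 4.89%), and the median log2 ratio was 0.21, with that of all genes at -0.15. Akr1a1, an aldehyde reductase, had 483 CPM in the library labelled STK25 wKO and 374 CPM in the library labelled WT, Cbr1 had 175 CPM and 138 CPM, Cyb5a had 167 CPM and 134 CPM, and Aldh2 had 183 CPM and 184 CPM. None of 9 other conjugating enzymes passed 2-fold, with Mgst3 at 1271 CPM in the library labelled STK25 wKO and 912 CPM in the library labelled WT and Mgst1, a microsomal transferase, at 144 CPM and 80.2 CPM. Mgst2 had a log2 ratio of 0.03. Cofactor supply (13 genes, none past 2-fold, median 0.09) was near even, with Pgd at 0.11, Gsr at 0.06, Gss at 0.26 and Gclm at 0.26.

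Most export pumps and regulators had ratios below 0, as did 10448 of all 16598 genes in this class. All 8 export transporters had a ratio below 0 in the epithelium (median -0.37) and none passed 2-fold, with Abcc4 at 57.8 CPM in the library labelled STK25 wKO and 84.1 CPM in the library labelled WT, and Abcb1a, the P-glycoprotein gene, at 64.2 CPM and 73.3 CPM. Abcc1 had a log2 ratio of -0.49 and Abcc3 one of -0.14, close to the median over all genes (-0.15). Of 15 regulators, 14 lay below 0 and 1 passed 2-fold on that side (median -0.30). Hnf4a, the nuclear receptor of gut and liver identity, had 139 CPM in the library labelled STK25 wKO and 179 CPM in the library labelled WT, while Nfe2l2, which encodes NRF2, had 106 CPM and 115 CPM. Pparg and Vdr had log2 ratios of -0.29 and -0.24. Among 11 NRF2 targets outside the 4 families, 7 lay above 0 and none passed 2-fold (median 0.30). Gpx2, a glutathione peroxidase of the gut, had 2096 CPM in the library labelled STK25 wKO and 1396 CPM in the library labelled WT, Prdx1 had 1217 CPM and 987 CPM, and Txnrd1 had 248 CPM and 306 CPM.

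Several members cannot be counted apart with certainty, since they lie in clusters of near-identical copies. For each member, the last 500 bases of its transcripts were cut into words of 75 bases and searched in the transcripts of other genes. All words of Ugt1a1, Ugt1a6a and Ugt1a6b (100%) and 43.3% of those of Ugt1a7c were found elsewhere, as were 83.6% for Gsta1, 72.8% for Gstp1 and 50.9% for Gstp2. Cyp2c68 had 33.3%, Cyp2d10 21.2%, Cyp2d9 20.0%, Gstm1 15.9% and Cyp2d34 9.62%, while Cyp2d12 had 0.66%. In all, 25 members shared at least 1 word, and their counts should be read as uncertain between the copies. No word was shared for Cyp2c55, Gsto1, Gsta4, Sult1d1, Sult1b1, Sult1e1, Ugt2b34 or Ugt2b5.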

How the data were processed

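For 2 libraries the authors deposited unnormalised UMI counts by gene and barcode, made with Cell Ranger 7.1.0 (named in the file headers) on mm10. Whether the 10x chemistry was version 2 or 3 is not fixed by the labels. Barcodes under 200 genes or over 25% mitochondrial UMIs were dropped. For clustering, counts were log-transformed after scaling each cell to 10000. Leiden clusters (resolution 1, 2000 variable genes without any gene of the name pattern, 30 components, 20 neighbours) were made with scanpy 1.11.5 under Python 3.11.15. Naming a cluster took 3 or more markers, found in 10% or more of its cells and 5 percentage points above the median cluster, and clusters whose leading genes went against the name stayed unnamed. Doublets were kept. As an alternative, 1542 cells labelled STK25 wKO and 1204 labelled WT with the highest Scrublet scores were removed.

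UMIs were summed per class or state and library and divided by their total (CPM). Levels have exact Poisson, shares exact Clopper-Pearson and ratios exact conditional binomial intervals (95%). Ratios were taken from 20 UMIs upwards (both libraries summed), and the background is the share of all such genes past a log2 ratio of 1. Ratios and intervals were tested on simulated data. Named in full were the 4 members of each family with the most UMIs, members with at least 50 UMIs past 2-fold in epithelium or fibroblasts, the highest member of each state or class, and the 4 genes of each pathway list with the most epithelial UMIs. One gene that this rule takes from the list of other conjugating enzymes is not reported here, and neither is the median of that list. Other members and genes were named after their values were seen. The members, marker sets, lists and rules were chosen with earlier results of these data known. The protein identity of members was not analysed here. Promoters came from RefSeq (GRCm38.p6) and transcripts from the GENCODE annotation of the same build.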

Additional observations from a re-analysis of the deposited data

How the results depend on the processing

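No paired analysis was possible because there is 1 library per group. Shares of all genes are given above for the main setting only. In the epithelial class, 6 members passed a log2 ratio of 1 upwards and 3 downwards. With a minimum of 1 UMI and 1 CPM added, 3 passed upwards (Ugt2b5, Sult1d1 and Cyp2c55) and 1 downwards (Cyp2d12). With the 5 larger states weighted equally, 10 passed upwards, 5 of them shared with the 6, so that Gstm3, Sult1a1, Cyp4b1, Cyp2j8 and Cyp2j13 joined and Cyp4f18 left, and 3 passed downwards (Cyp2d12, which was shared, Cyp2f2 and Cyp2c69). In fibroblasts, 8 passed upwards and 2 downwards, and with a minimum of 50 UMIs 3 passed upwards (Ugt1a7c, Sult1d1 and Cyp2c55) and 1 downwards (Sult1e1). In fibroblasts with at least 5000 UMIs, 7 passed upwards, of which 2 were shared with the 8, and 1 downwards (Cyp2f2). This setting, and leaving out barcodes found in both libraries, which gave the same counts of 6, 3, 8 and 2, were chosen after seeing the data. The other alternatives (cell filters, scaling without mitochondrial and ribosomal protein genes, centring, mean over cells, resolution, Scrublet) left each of these counts within 1.5 times. Of 40 named member and library pairs of state order, 31 held with states set per cell and 30 with cells thinned to 1000 UMIs. Among 398 finite values of log2 ratios of named or called members under alternatives, 51 moved beyond the counting interval and no such ratio past 2-fold changed sign. Epithelial Cyp2j13 did turn with states weighted equally, where it has no finite ratio (0 UMIs in the library labelled WT). Fibroblast Cyp2s1 was at 0.33 without the highest Scrublet scores. Smaller ratios that did are Gsto1 (given above), epithelial Sult1b1, at -0.08 and at 0.08 when centred on the median of all genes, epithelial Ugt2b35 (-0.21 as a mean over cells), fibroblast Sult1a1 (0.46, and -0.35 without the highest Scrublet scores), fibroblast Sult1b1 (0.60, and -0.15 in cells with at least 5000 UMIs) and fibroblast Gsto1, near 0 throughout. The cause of these shifts was not tested. No epithelial cluster had a median under 1000 UMIs, so leaving such clusters out gave no value. Cell numbers limit some states: a Sult1e1 level of 0 in C7 Myoc fibroblasts labelled STK25 wKO rests on 35 cells.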
